A study of Mus musculus with 8 samples.

Results

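Oxidative phosphorylation (OXPHOS) is the set of inner mitochondrial membrane reactions that turn NADH and succinate into ATP. Complexes I to IV pass electrons to oxygen and complex V, the ATP synthase, uses the resulting proton gradient. Most subunits are encoded in the nucleus, made in the cytosol and imported, and a few catalytic ones are encoded by mitochondrial DNA, so that the complexes depend on both genomes. The nuclear subunit genes were examined here in MEFs (mouse embryonic fibroblasts), cultured cells of the embryo's connective tissue, with or without Cebpg. That gene encodes C/EBPγ, a leucine zipper transcription factor that pairs with other factors of its kind. A member is a gene with a probe set (a group of short array probes for 1 transcript) that the platform's annotation assigns to that gene alone, with a symbol of the families Nduf (complex I), Sdh (II), Uqcr (III), Cox5 to Cox8 (IV) or Atp5 (V). Where a gene has several, the brightest by its mean over the 8 arrays was used. This gave 79 members among 18193 measured genes: 35 of complex I, 4 of complex II, 8 of complex III, 15 of complex IV and 17 of complex V. The symbols place Ndufa4 and Ndufa4l2 under complex I, although Ndufa4 protein is now counted as a subunit of complex IV.

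The samples were 4 WT and 4 Cebpg-/- MEF cultures of the C57BL/6 strain from E13.5 embryos, without any treatment, in medium with 10% FBS. They were harvested at passage 3, 48 hours after seeding at the same density. The titles call them biological replicates without saying whether they came from different embryos, so a p-value here reflects sample-to-sample spread only. One Affymetrix array was run per sample, and their number limits the precision. Values are RMA expression values, on a log2 scale on which a difference of 1 is a doubling and 0.10 is about 7%. RMA makes the overall brightness of all arrays alike, so every difference is relative to the other genes of the array.

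The array-wide facts that touch these genes are few. The median probe set lay between 2.70 and 2.76 on the 8 arrays. Pairwise correlations of arrays were between 0.986 and 0.997 over the 18193 genes, by the brightest probe set of each. Of 3 Cebpg probe sets, 1 fell from 6.32 ± 0.07 to 5.53 ± 0.12 (SD, n = 4 each), with limma's adjusted p = 0.000593 over probe sets, and the other 2 did not pass at -0.17 and 0.26; which part of the gene was deleted is not given in the sources used here. All 11 fibroblast markers were above the median probe set on at least 1 array, with a mean level of 9.82 ± 0.16 in WT and 9.56 ± 0.14 in Cebpg-/-. Of these, 4 fell, Col1a1, Col1a2, Col3a1 and Pdgfrb, and none passed as a rise. The markers did not move together: 8 had a negative difference, down to -1.05, and 3 a positive one, up to 1.07. The mean level of 18 leukocyte markers was 4.79 ± 0.82 in WT and 6.17 ± 1.08 in Cebpg-/-. All 18 had a positive difference and 1, Cd14, passed the test, so macrophage-type transcripts were present in both genotypes and uneven within each. In bulk RNA fewer cells of a type and less RNA per cell cannot be told apart.

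Most nuclear OXPHOS genes were slightly above their WT level in Cebpg-/- MEFs, and few of these differences passed the test. The difference of the means was positive for 66 of 79 members, and its median was 0.10, or 107% of WT, with quartiles at 0.04 and 0.14. Over all genes 49.7% had a positive difference and the median was -0.000922. By limma with Benjamini-Hochberg adjustment over all genes at 0.05, 6 members rose and none fell, while 26 members were higher and 1 was lower at an unadjusted p under 0.05, against 17.5% and 10.9% of all genes. The 6 are 7.59% of the members, and 8.62% of all genes rose, so in this fit the share of calls is near that of all genes. In the other direction 3.99% of all genes fell, and 12.6% changed either way. The 4 Cebpg-/- values lay above all 4 WT values for 25 members (31.6%) and below them for none, against 12.8% and 6.74% of all genes. These members are mostly bright probe sets: 76 of 79 exceeded the median probe set on at least 4 arrays, and among the 11703 genes that did so 57.1% had a positive difference, 18.5% had all 4 values above, the median was 0.03 and 12.6% rose, against 7.89% of the 76 members. The members' share of rises moved with the fit: it was 21.5% against 12.03% of all genes with array medians subtracted, 17.7% against 9.22% with an intensity trend and robust variance, and 2.53% against 6.22% with quantile normalization. The median standard error of a member's difference was 0.059, so a difference of the median size is under 2 standard errors for a single gene.

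**Figure D1:**
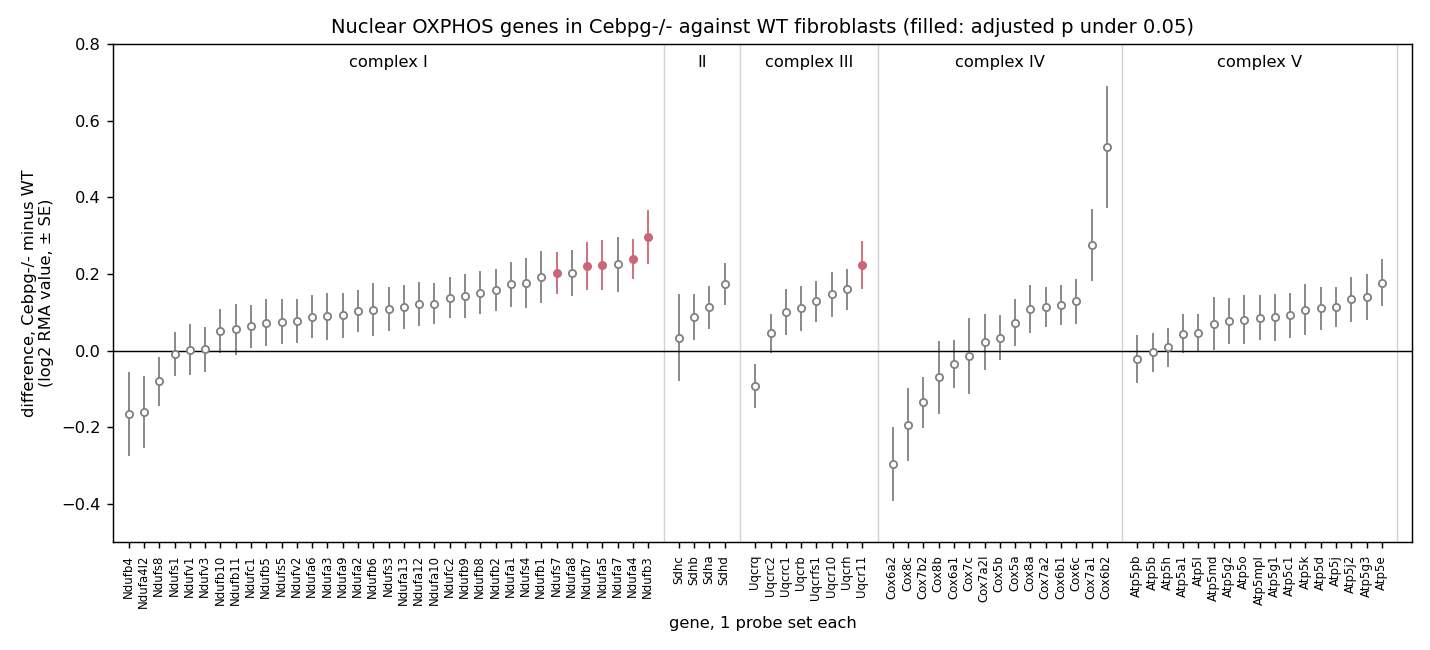
Difference of group means, Cebpg-/- minus WT (log2), for each of the 79 genes, ordered by complex, with limma's standard error as the bar; filled points passed the test (adjusted p under 0.05). The points of complexes I, III and V lie mostly above 0, and those of complex IV run from -0.30 to 0.53 around a median of 0.03.

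The shift was seen on arrays as well as on genes. Each member was set to 0 at its WT mean, and the median over the 79 members was taken per array. It was 0.01, 0.02, 0.05 and -0.07 on WT replicates 1 to 4 and 0.13, 0.12, 0.10 and 0.06 on Cebpg-/- replicates 1 to 4. All 4 Cebpg-/- arrays were therefore above the WT arrays, the nearest being WT replicate 3 and Cebpg-/- replicate 4. The same median over all genes stayed between -0.03 and 0.02 on every array. Over the 11703 brighter genes it was between -0.02 and 0.02 on the WT arrays and 0.04, 0.04, 0.03 and 0.03 on Cebpg-/- replicates 1 to 4, so bright genes as a whole separated the genotypes too, by less. WT replicate 4 was the lowest of the 8 arrays for 49 members, and Cebpg-/- replicates 1 and 2 were the highest for 30 and 22. Without WT replicate 4 the median difference was 0.08, the lowest of the fits that left out 1 array, and without Cebpg-/- replicate 4 it was 0.11, the highest. Beside these medians, the leukocyte marker level was 3.56, 5.18, 5.11 and 5.30 on WT replicates 1 to 4 and 7.25, 4.69, 6.57 and 6.18 on Cebpg-/- replicates 1 to 4. Cebpg-/- replicate 1 was highest in both, Cebpg-/- replicate 2 was second in the OXPHOS median with a leukocyte level below that of WT replicates 2 to 4, and WT replicate 1 was lowest in leukocyte level only. The part of these cells in the shift was not tested.

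**Figure D2:**
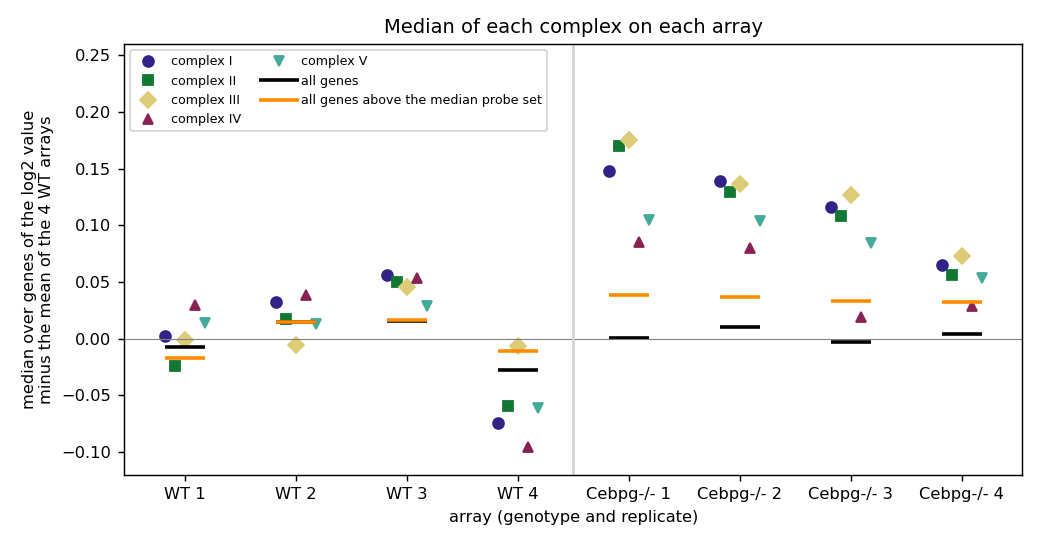
Median over the members of each complex (log2 value minus the gene's WT mean) on each array, with all genes beside them. The Cebpg-/- medians of complexes I, II, III and V exceed every WT median, those of complex IV overlap WT. All genes stay near 0, and genes above the median probe set lie at 0.03 to 0.04 on the Cebpg-/- arrays and at -0.02 to 0.02 on the WT arrays.

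Complex I, the NADH dehydrogenase that starts the chain, held 35 of the 79 members and 5 of the 6 calls. These calls were 14.3% of its members, against 8.62% of all genes and 12.6% of genes above the median probe set. They include Ndufa4, placed here by its symbol, whose protein is now counted in complex IV. Of the 35 members of complex I 31 had a positive difference, and the median was 0.11. All 4 Cebpg-/- values lay above WT for 14 of them (40%), against 12.8% of all genes and 18.5% of genes above the median probe set. Its core subunits carry the flavin and iron-sulfur clusters that move electrons, and its accessory subunits surround them and are needed for assembly and stability. The 6 measured core subunits had a median of 0.04, with 4 positive and 1 call. The 27 accessory subunits had a median of 0.12, with 26 positive, 12 with all 4 values above and 3 calls. Among the accessory subunits the 8 of the matrix arm had a median of 0.11 and the 19 of the membrane arm 0.12. Whether core and accessory subunits differ was not tested.

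Ndufb3, an accessory subunit of the membrane arm, had the largest difference of complex I. It read 8.001, 8.03, 8.10 and 7.84 in WT replicates 1 to 4 and 8.41, 8.25, 8.26 and 8.24 in Cebpg-/- replicates 1 to 4. All Cebpg-/- values were above WT, with replicate 1 standing above the other 3. The means were 7.99 ± 0.11 and 8.29 ± 0.08 (SD, n = 4 each), a rise of 0.30 (SE 0.071), to 123% of WT, with limma's adjusted p = 0.0237.

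Ndufa4, the small subunit now placed in complex IV, had the lowest p of all members. It read 9.78, 9.76, 9.83 and 9.73 in WT and 10.05, 10.03, 10.01 and 9.98 in Cebpg-/-. The groups were separate and each was tight. Its rise was 0.24 (SE 0.052), to 118% of WT, with limma's adjusted p = 0.0159. The paralog Ndufa4l2, a gene known as a hypoxia-inducible brake on respiration, read 3.13, 3.18, 3.30 and 2.86 in WT and 2.81, 3.01, 2.99 and 3.01 in Cebpg-/-. These groups overlapped, with a difference of -0.16 (95% interval -0.37 to 0.05) that did not pass (adjusted p = 0.298).

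Ndufs7 carries the iron-sulfur cluster that hands electrons to ubiquinone, and was the only core subunit that passed. It read 8.59, 8.59, 8.62 and 8.55 in WT and 8.86, 8.71, 8.81 and 8.79 in Cebpg-/-, so the groups did not overlap. The rise was 0.20 (SE 0.054; adjusted p = 0.0374 by limma). The other core subunits spread around 0. Ndufs3 was at 0.11 and Ndufv2 at 0.08, while Ndufv1 (0.00), Ndufs1 (-0.01) and Ndufs8 (-0.08) were near or below 0, and none of the 5 passed. Ndufs8 has 6 probe sets, whose differences lay between -0.09 and 0.03.

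Ndufb7, an intermembrane-space subunit of the membrane arm, read 8.99, 8.93, 9.06 and 8.90 in WT and 9.30, 9.16, 9.20 and 9.11 in Cebpg-/-. The highest WT and the lowest Cebpg-/- array were close, without overlap. It rose by 0.22 (SE 0.063; adjusted p = 0.0475 by limma). Ndufa5, an accessory subunit of the matrix arm, read 7.97, 8.09, 8.02 and 7.94 in WT and 8.20, 8.31, 8.29 and 8.11 in Cebpg-/-. WT replicate 2 and Cebpg-/- replicate 4 almost met. Its rise was 0.22 (SE 0.065; adjusted p = 0.0495 by limma). Both lay just inside the threshold, and Ndufa8 (0.20, adjusted p = 0.0533) and Ndufa7 (0.23, adjusted p = 0.0676), an intermembrane-space and a matrix-arm subunit, lay just outside it. The largest negative difference of complex I was that of Ndufb4, on a dim probe set that read 1.76, 1.89, 1.70 and 1.49 in WT and 1.58, 1.35, 1.45 and 1.80 in Cebpg-/-. The groups overlapped (-0.17, adjusted p = 0.356), and this probe set was below the median probe set.

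**Figure D3:**
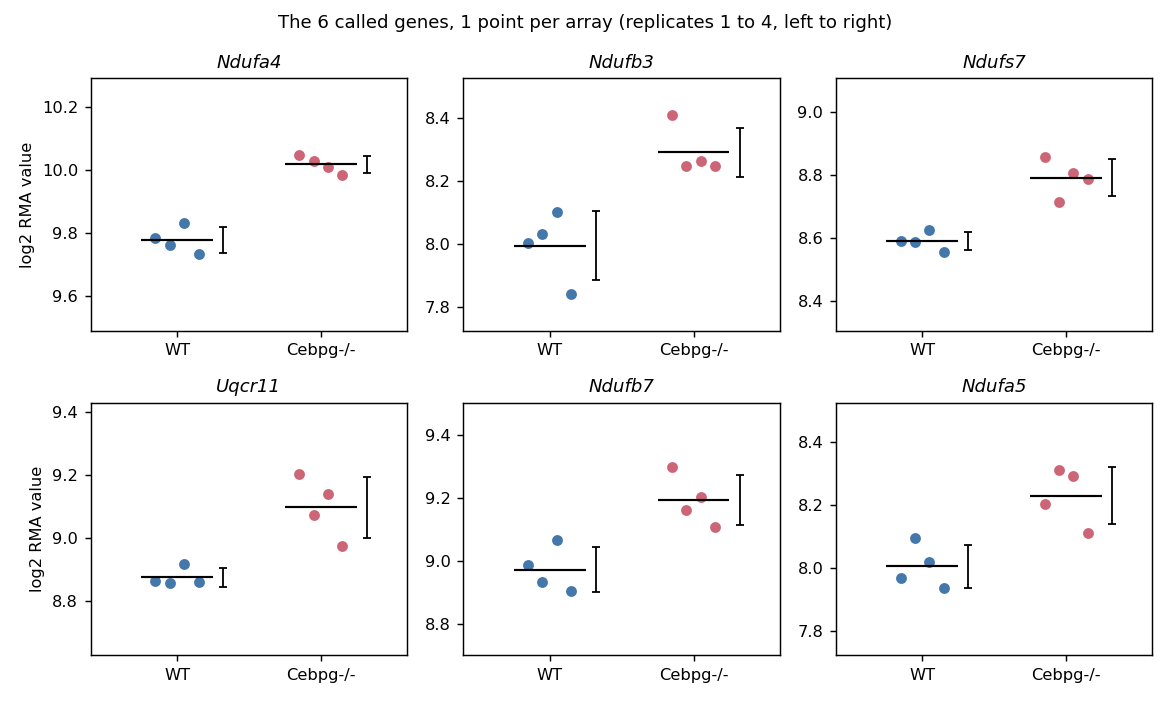
Log2 values of the 6 genes that passed the test, 1 point per array in replicate order, with the group mean as a line and the SD as a bar; each panel has its own axis, which does not start at 0. In every panel the 4 Cebpg-/- points lie above the 4 WT points, by margins that are small for Ndufa5, Ndufb7 and Uqcr11.

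Complex II, succinate dehydrogenase, is the enzyme of the TCA cycle that sits in the membrane, and all of its subunits are nuclear. None of the 4 passed, all 4 had a positive difference, and the median was 0.10. Sdha, the flavoprotein that oxidises succinate, read 8.57, 8.70, 8.69 and 8.59 in WT and 8.78, 8.75, 8.76 and 8.70 in Cebpg-/-. WT replicate 2 touched Cebpg-/- replicate 4 at this rounding (0.11, adjusted p = 0.218). Sdhb, the iron-sulfur subunit, read 9.08, 9.04, 9.15 and 8.94 in WT and 9.15, 9.16, 9.15 and 9.10 in Cebpg-/-, with overlap (0.09, adjusted p = 0.365). Sdhc and Sdhd anchor the enzyme in the membrane and bind ubiquinone, and they differed in spread. Sdhd read 8.52, 8.55, 8.50 and 8.42 in WT and 8.70, 8.72, 8.62 and 8.65 in Cebpg-/-, with all 4 values above WT (0.17, adjusted p = 0.0666). Its other probe set, at 7.17 in WT, gave a difference of 0.01, and the mean of both gave 0.09 (adjusted p = 0.378 by limma). Sdhc read 7.58, 7.56, 7.75 and 7.91 in WT and 7.91, 7.84, 7.76 and 7.43 in Cebpg-/-. Its arrays crossed over the whole range, and the interval of its difference of 0.03 ran from -0.22 to 0.29.

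Complex III, the cytochrome bc1 complex, passes electrons from ubiquinol to cytochrome c. Of its 8 members 1 passed (12.5%), against 8.62% of all genes and 12.6% of genes above the median probe set. A positive difference was seen for 7, and the median was 0.12. All 4 Cebpg-/- values lay above WT for 4 of the 8 (50%), against 12.8% of all genes and 18.5% of genes above the median probe set. Uqcr11, a small peripheral subunit, read 8.86, 8.85, 8.92 and 8.86 in WT and 9.20, 9.07, 9.14 and 8.97 in Cebpg-/-. WT was tight and Cebpg-/- spread, with no overlap, and the rise was 0.22 (SE 0.062; adjusted p = 0.0421 by limma). Uqcrh, the acidic hinge protein that helps dock cytochrome c, was at 0.16, Uqcr10 at 0.15 and Uqcrfs1, the Rieske iron-sulfur protein, at 0.13, each with all 4 values above WT and none past the threshold. The core proteins Uqcrc1 and Uqcrc2, which hold no redox centre, were at 0.10 and 0.05. The exception was Uqcrq, the ubiquinone-binding subunit, at 9.49, 9.43, 9.53 and 9.49 in WT and 9.45, 9.45, 9.35 and 9.32 in Cebpg-/-. The groups overlapped (-0.09, adjusted p = 0.326). All 4 of its probe sets had a negative difference, from -0.33 to -0.04, but those not chosen were dim, with WT means of 3.27, 2.37 and 2.22. The -0.33 came from the one at 3.27, so their sign adds little to that of the chosen probe set.

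Complex IV, cytochrome c oxidase, reduces oxygen, and several of its nuclear subunits come as a general form and a form of muscle, heart or testis. None of the 15 members passed, 9 had a positive difference, and the median of 0.03 was the lowest of the 5 complexes. Ndufa4, which passed, is not among the 15, because its symbol places it under complex I. The 8 general forms had a median of 0.09, with 6 positive. All 4 values lay above WT for 3 of them, Cox6b1, Cox6c and Cox7a2. These are 37.5%, against 12.8% of all genes and 18.5% of genes above the median probe set. Cox7c, at -0.01, was read from a probe set at only 3.98 in WT, while the next lowest general form, Cox8a, was at 9.38. A second bright probe set of Cox6c, at 10.07 in WT, gave a difference of 0.005. The 6 tissue forms, Cox6a2, Cox6b2, Cox7a1, Cox7b2, Cox8b and Cox8c, had a median of -0.10, with 2 positive. Muscle markers were not high in these cultures: 6 of 11 were below the median probe set on all arrays, their mean level was 3.21 ± 0.07 in WT and 3.11 ± 0.02 in Cebpg-/-, and 1, Actc1, fell. Their part in the tissue forms was not tested.

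The widest differences of complex IV belonged to tissue forms. Cox6b2, the testis form of a subunit that faces the intermembrane space, read 4.17, 4.00, 4.31 and 4.12 in WT and 4.75, 4.72, 5.07 and 4.18 in Cebpg-/-. Cebpg-/- replicate 4 fell within the WT range and the other 3 were above it. The difference was 0.53 (SE 0.160), to 145% of WT, and missed the threshold (adjusted p = 0.0563 by limma). Without Cebpg-/- replicate 4 it was 0.70 with an adjusted p of 0.00914 by limma. That was the only 1 of the 8 fits without 1 array in which Cox6b2 passed, and the highest adjusted p among them was 0.133. Cox6a2, the heart and muscle form of another subunit, read 5.34, 5.28, 5.39 and 4.96 in WT and 4.94, 5.06, 4.97 and 4.82 in Cebpg-/-. WT replicate 4 lay among the Cebpg-/- arrays, and the difference of -0.30 did not pass (adjusted p = 0.0749). Without WT replicate 4 it was -0.39 with an adjusted p of 0.00960 by limma. Cox6a2 too passed in only 1 of the 8 fits without 1 array, with a highest adjusted p of 0.184. Its general partner Cox6a1 read 11.95, 12.02, 12.03 and 11.84 in WT and 11.93, 11.94, 11.85 and 11.98 in Cebpg-/-, with full overlap (-0.04, interval -0.17 to 0.10).

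The Cox7a and Cox8 sets were as follows. Cox7a2, the general form of a small membrane subunit, read 10.80, 10.83, 10.84 and 10.77 in WT and 10.93, 10.94, 10.97 and 10.86 in Cebpg-/-, separate by a narrow margin (0.11, adjusted p = 0.188). The muscle form Cox7a1 read 1.66, 1.83, 2.11 and 1.92 in WT and 2.26, 2.05, 2.22 and 2.09 in Cebpg-/-. It was below the median probe set on every array, so its difference of 0.28 (adjusted p = 0.0863) rests on a dim signal. Cox7a2l, a related protein that joins complexes III and IV, read 8.97, 8.93, 8.94 and 8.71 in WT and 8.89, 9.01, 8.83 and 8.90 in Cebpg-/-, with overlap (0.02, adjusted p = 0.869). Cox8a read 9.29, 9.43, 9.46 and 9.35 in WT and 9.59, 9.47, 9.47 and 9.44 in Cebpg-/-, with WT replicate 3 inside the Cebpg-/- range (0.11, adjusted p = 0.280). Its muscle form Cox8b read 3.05, 2.89, 2.72 and 2.74 in WT and 2.65, 2.82, 2.68 and 2.97 in Cebpg-/-, near the median probe set and mixed (-0.07, adjusted p = 0.676). The Cox4 genes, which the symbol rule does not reach, gave 0.11 for the general Cox4i1, with all 4 values above WT (adjusted p = 0.211), and -0.08 for the hypoxia-linked Cox4i2 (adjusted p = 0.531).

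**Figure D4:**
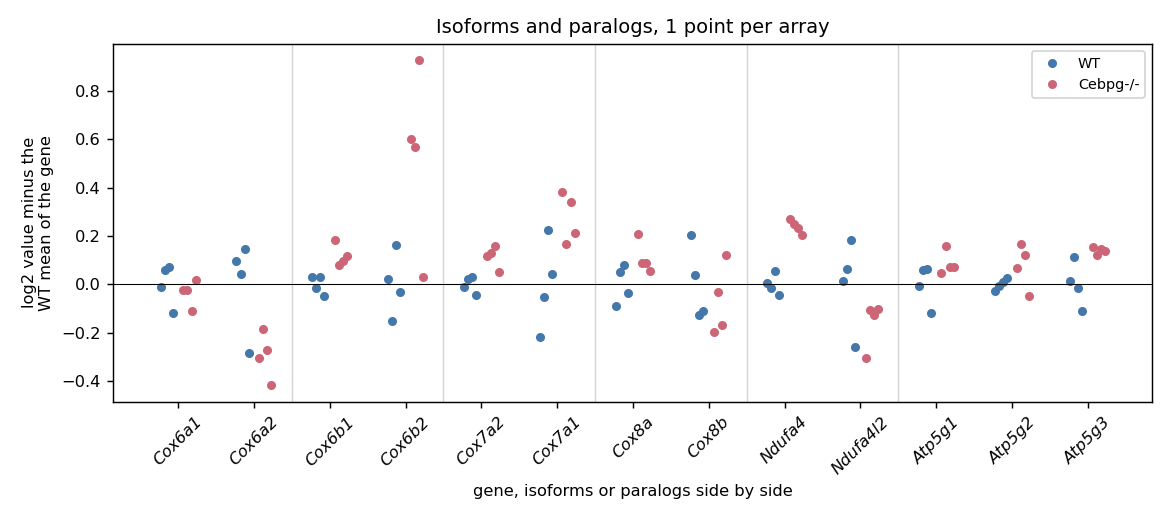
Log2 value minus the gene's WT mean on each array for isoforms and paralogs of the chain, with WT and Cebpg-/- arrays side by side. Ndufa4 separates the genotypes and Ndufa4l2 does not, and the dim Cox7a1 and Cox8b scatter more widely than Cox7a2 and Cox8a.

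Complex V, the ATP synthase, consists of a catalytic head, a rotating ring of c subunits and a stalk that joins them. None of its 17 members passed, 15 had a positive difference, and the median was 0.09. All 4 Cebpg-/- values lay above WT for 3 of them (17.6%), against 12.8% of all genes and 18.5% of genes above the median probe set. The 5 subunits of the head had a median of 0.09, with the catalytic Atp5b at -0.01 and Atp5a1 at 0.04. Atp5e, the small subunit of the central stalk, had the largest difference, and read 8.83, 8.81, 8.98 and 8.83 in WT and 9.05, 9.10, 9.04 and 8.96 in Cebpg-/-. WT replicate 3 was the only WT array to reach the Cebpg-/- range (0.18, adjusted p = 0.0891). Atp5pb, the b subunit of the outer stalk, was lowest at -0.02 (interval -0.16 to 0.12), with 10.69, 10.70, 10.51 and 10.55 in WT and 10.54, 10.60, 10.61 and 10.61 in Cebpg-/-, in full overlap.

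The c subunit is made from 3 genes whose mature proteins are the same and whose import signals differ. Atp5g1 read 9.15, 9.21, 9.22 and 9.04 in WT and 9.20, 9.31, 9.23 and 9.22 in Cebpg-/-, with overlap (0.09, adjusted p = 0.386). Atp5g2 read 9.10, 9.12, 9.14 and 9.15 in WT and 9.20, 9.29, 9.25 and 9.08 in Cebpg-/-, where replicate 4 was below every WT array (0.08, adjusted p = 0.441). Atp5g3 read 10.79, 10.89, 10.76 and 10.66 in WT and 10.93, 10.90, 10.92 and 10.91 in Cebpg-/-. It had all 4 values above WT, WT replicate 2 and Cebpg-/- replicate 2 being nearly equal (0.14, adjusted p = 0.158). None of the 3 passed.

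The calls depended on single arrays. When each array was left out in turn, between 0 and 5 members rose, and Cebpg-/- replicate 1 was the array without which none did. Without WT replicates 1, 2, 3 and 4 the count was 1, 3, 3 and 2, and without Cebpg-/- replicates 2, 3 and 4 it was 3, 1 and 5. Over all genes such fits gave between 780 (4.29%) and 1690 (9.29%) rises. Ndufa4 passed in 7 of these 8 fits, with adjusted p between 0.0280 and 0.0511, and Ndufb3 in 5. Ndufa5 passed in 2, Ndufs7 and Uqcr11 in 1 each and Ndufb7 in none, while their differences stayed between 0.18 and 0.26. With the leukocyte marker mean added to the fit no member passed, against 257 rises (1.41%) and 128 falls (0.704%) over all genes, and 69 members had a positive coefficient, 65 of them among the 66 that were positive without the covariate, with a median of 0.10. Ndufa4 was then at 0.24 (adjusted p = 0.134) and Ndufb3 at 0.26 (adjusted p = 0.212).

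Other probe sets of the same genes were set beside the chosen ones. There were 83 further probe sets for 48 members, and 31 members had 1 only. Of the 66 that exceeded the median probe set, 55 had the sign of the chosen probe set. Of the 17 dimmer ones 4 were positive. With p-values adjusted over all probe sets, where 4.82% rose and 7.60% changed either way, 4 of the 162 member probe sets rose and none fell: those chosen for Ndufa4 and Ndufb3, and a dimmer one each of Ndufa7 (0.33, adjusted p = 0.0133) and Ndufa3 (0.26, adjusted p = 0.0412). Both probe sets of Ndufa5 gave a difference near 0.22 and 0.23, those of Ndufb7 0.21 and 0.22 and those of Ndufs7 0.20 and 0.21, and Ndufa7 was positive on all 5 of its probe sets, from 0.16 to 0.33. Probe sets of 1 gene share its transcript and are not replicates. Of the chosen probe sets 16 carry the suffix s or x, which marks probes that may match other transcripts, and none of the 6 called genes is among them.

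Promoters were read from RefSeq (assembly GRCm38.p6) for the 66 members that matched by symbol, from 250 bases before to 50 after the transcription start. The nuclear respiratory factor NRF1 and the ETS factor GABP are textbook activators of such genes, YY1 is another, and C/EBP-ATF response elements (CARE) bind heterodimers of C/EBP and ATF4. The letters searched, on both strands, were the NRF1 consensus (GCGCA and GCGC around 1 free base), CCGGAAG (ETS/GABP), AAGATGGC (YY1) and TGATGNAAN (CARE), each on its own and with overlaps between motifs allowed. The NRF1 letters stood in 15 members (22.7%), against 8.61% of the 14452 measured genes with a promoter in the table. For ETS/GABP it was 17 (25.8%) against 14.98%, and for YY1 9 (13.6%) against 4.07%. CARE letters stood in none of the 66 and in 3.22% of measured genes. Members with and without the letters had like median differences, 0.09 and 0.11 for NRF1, 0.11 and 0.10 for ETS/GABP and 0.11 and 0.11 for YY1.

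The upstream bases of 4 of the 6 called genes are shown to let the motif positions be seen, 5′ to 3′ in the sense of the gene up to the base before the start, with the motif letters in capitals and no such letters in Ndufa4. The upstream bases of Ndufb3 and Ndufs7, which are not shown, hold no such letters either. Ndufs7 matched YY1 only when the 50 bases after the start were included. Ndufa5 holds the NRF1 letters from 26 bases before its more upstream listed start, and Uqcr11 and Ndufb7 hold the ETS letters from 66 and 20 bases before theirs.
Ndufa5, chr6:24527691-24527940, minus strand: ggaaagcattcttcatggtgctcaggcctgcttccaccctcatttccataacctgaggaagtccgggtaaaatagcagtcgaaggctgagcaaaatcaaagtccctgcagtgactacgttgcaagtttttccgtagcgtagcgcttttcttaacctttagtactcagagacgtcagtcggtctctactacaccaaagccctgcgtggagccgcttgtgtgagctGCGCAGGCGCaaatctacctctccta
Uqcr11, chr10:80406822-80407071, minus strand: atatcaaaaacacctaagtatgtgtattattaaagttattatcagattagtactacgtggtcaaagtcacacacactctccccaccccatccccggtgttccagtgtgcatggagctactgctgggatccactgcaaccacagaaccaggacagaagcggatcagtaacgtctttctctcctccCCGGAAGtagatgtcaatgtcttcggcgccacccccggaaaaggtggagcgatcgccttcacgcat
Ndufb7, chr8:83566508-83566757, plus strand: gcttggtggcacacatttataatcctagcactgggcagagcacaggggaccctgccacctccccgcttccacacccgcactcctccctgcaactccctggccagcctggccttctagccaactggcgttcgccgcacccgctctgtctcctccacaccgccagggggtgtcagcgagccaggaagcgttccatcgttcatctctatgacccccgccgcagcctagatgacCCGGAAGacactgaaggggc
Ndufa4, chr6:11907451-11907700, minus strand: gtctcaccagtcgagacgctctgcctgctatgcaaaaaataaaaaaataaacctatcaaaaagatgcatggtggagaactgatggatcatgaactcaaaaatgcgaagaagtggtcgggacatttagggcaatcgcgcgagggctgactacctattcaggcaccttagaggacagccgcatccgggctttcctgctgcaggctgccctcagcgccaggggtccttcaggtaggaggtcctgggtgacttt
A match is a string of letters, not a bound site, and no binding was measured here.

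Genes that build or serve the chain were counted from lists that hold no member. Beside the counts of every list, 8.62% of all genes rose and 3.99% fell in the main fit. Among genes above the median probe set, where most genes of these lists lie, 12.6% rose. The share of all genes that rose was 6.22% with quantile normalization and 12.03% with array medians subtracted. It was 1.41% with the leukocyte covariate and between 4.29% and 9.29% without 1 array. The mitochondrial ribosome, which translates the subunits encoded by mitochondrial DNA, had 23 of 76 genes that rose (30.3%) and none that fell. Of the 76, 73 had a positive difference, and the median was 0.17. All 4 Cebpg-/- values lay above WT for 45 (59.2%), against 12.8% of all genes and 18.5% of genes above the median probe set. Mrpl1 rose by 0.44 (SE 0.066; adjusted p = 0.00351), Mrps22 by 0.33 (SE 0.056; adjusted p = 0.00576) and Mrpl49 by 0.40 (SE 0.073; adjusted p = 0.00865), by limma, each with separate groups. Without 1 array the count of rises ran from 4 to 20, with medians between 0.14 and 0.17; it was 5 without WT replicate 1, 10 without WT replicate 3, 8 without Cebpg-/- replicate 1 and 4 without Cebpg-/- replicate 3. Quantile normalization gave 9 rises and subtraction of array medians 35. With the leukocyte covariate none passed, 75 were positive and the median was 0.16.

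Assembly factors, which insert cofactors and join subunits, had 14 of 51 genes that rose (27.5%, against 8.62% of all genes). Of this list 1 gene fell, 45 had a positive difference, and the median was 0.17. Acad9, needed for complex I assembly, rose by 0.36 (adjusted p = 0.00420), Sco2, a copper carrier for complex IV, by 0.35 (adjusted p = 0.00678) and Uqcc3, for complex III, by 0.30 (adjusted p = 0.00717), all by limma. Cox11, another copper carrier for complex IV, fell by 0.20 (adjusted p = 0.0411). Of the fits that left out 1 array, only that without Cebpg-/- replicate 2 had a fall in this list. None fell with array medians subtracted, the replicate block or the leukocyte covariate. The count of falls was 1 with quantile normalization, dim probe sets left out, probe sets averaged, the intensity trend and array weights. Leaving out 1 array left between 6 and 12 rises (6 without WT replicate 1 or Cebpg-/- replicate 1, 7 without Cebpg-/- replicate 3, and 9 without WT replicate 3 or 4), quantile normalization 7, subtraction of array medians 22 and the leukocyte covariate 0.

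Of the mobile carriers and coenzyme Q genes 7 of 18 rose (38.9%, against 8.62% of all genes) and none fell, with a median of 0.17. Sqor, which feeds electrons from sulfide to coenzyme Q, read 4.21, 4.51, 4.41 and 4.53 in WT and 5.69, 5.06, 5.94 and 5.43 in Cebpg-/-. This rise of 1.11 (SE 0.165; adjusted p = 0.00336) was the largest of the list, with the groups far apart. Pdss2 and Coq9, of coenzyme Q synthesis, rose by 0.41 (adjusted p = 0.00700) and 0.23 (adjusted p = 0.0217), by limma. Leaving out 1 array left between 2 and 7 rises (2 without Cebpg-/- replicate 1, and 3 without WT replicate 1 or 3 or Cebpg-/- replicate 3), quantile normalization 4 and the leukocyte covariate 1.

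**Figure D5:**
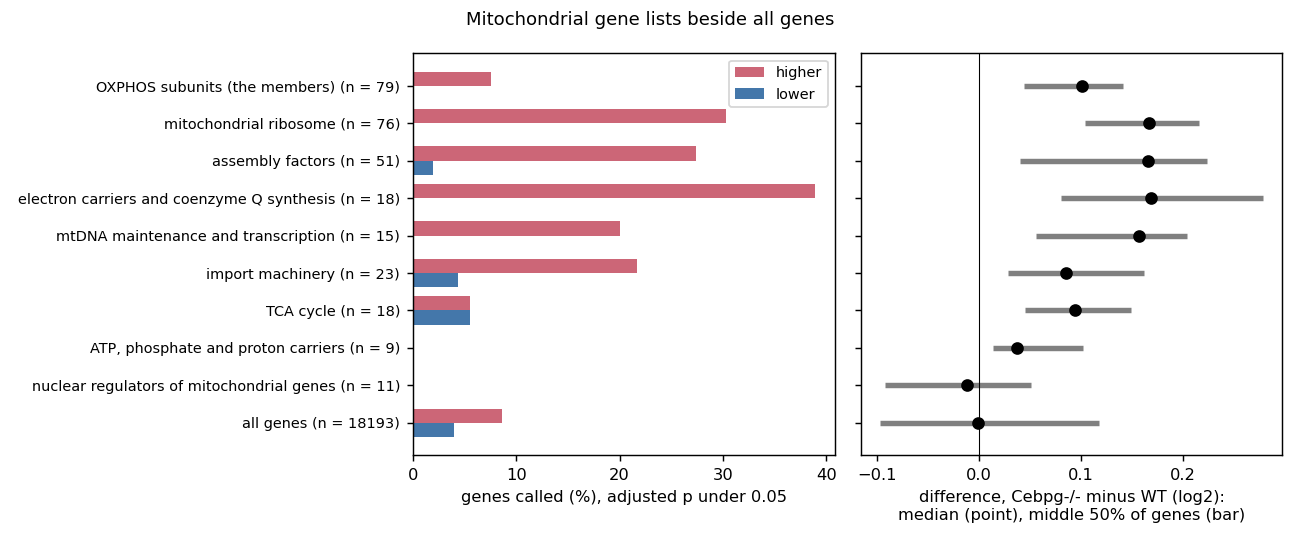
Share of genes that rose or fell and median difference (log2) for the 79 members together and for lists of other mitochondrial genes, with all genes beside them; bars in the right panel span the middle 50% of genes. The medians of the mitochondrial ribosome, assembly factors and coenzyme Q genes are 0.17, that of the members is 0.10, and nuclear regulators lie at -0.01.

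None of 11 nuclear regulators of mitochondrial genes passed, 4 had a positive difference, and the median was -0.01. Nrf1, which encodes the factor named above, read 4.74, 4.76, 4.85 and 4.99 in WT and 5.07, 5.06, 5.05 and 5.01 in Cebpg-/-. All 4 values were above WT by a narrow margin (0.21, adjusted p = 0.0608). Gabpa was at -0.05 (adjusted p = 0.745). The coactivator Ppargc1a read 1.58 to 1.86 in WT and 1.66 to 1.82 in Cebpg-/-, below the median probe set (0.05, adjusted p = 0.725).

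Among 10 genes that switch respiration under low oxygen 3 rose (30%, against 8.62% of all genes), 1 fell, and the median was 0.05. Egln3, a prolyl hydroxylase that is itself induced by hypoxia, read 3.41, 3.20, 3.60 and 3.60 in WT and 5.78, 5.12, 5.49 and 5.94 in Cebpg-/-, a rise of 2.13 (SE 0.164; adjusted p = 0.000132). Bnip3, a receptor for mitochondrial autophagy, rose by 1.39 (adjusted p = 0.000424). Lonp1, the matrix protease, fell by 0.69 (adjusted p = 0.000424), all by limma and with separate groups. These differences are wider than those of any OXPHOS subunit that passed.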

How the data were processed

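Total RNA of 8 MEF samples, 4 WT and 4 Cebpg-/- by their titles, was labelled from 1 µg with an oligo(dT) primer, per the labels' protocols. The deposited values are log2 expression values that the authors obtained with RMA, according to the submitters' processing notes, which name no version. RMA compresses differences of dim probe sets. Control probe sets (64 of 45101) were left out. The platform annotation names 1 gene for 34945 of the other 45037, several for 932 and none for 9160; symbols of 34741 were updated through RefSeq (GRCm38.p6).

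A linear model with genotype alone (limma 3.58.1, R 4.3.3, eBayes without trend) was fitted to the 45037 probe sets. Benjamini-Hochberg adjustment ran over 18193 genes, 1 brightest probe set each, and 0.05 was the threshold. Intervals are limma's 95% intervals. Lists are described by counts and medians without a test. The members, lists, role groups, tests and alternatives were chosen with earlier results of these data known. Named in full are called members, the largest and smallest difference of each complex, and isoform sets, plus up to 3 rises and the falls of each list and a few regulators; other members are named after their values were seen. Subunits encoded by mitochondrial DNA were not analysed here. Alternatives were another normalization, filter, gene summary, variance model, array weights, a replicate block, a leukocyte covariate, a looser threshold and leaving out each array; a fit without the arrays at either end of the leukocyte markers (replicate 1 of each genotype) was added after seeing the data. Same-numbered samples did not deviate together (correlations -0.36, 0.15, 0.02 and 0.05), so numbers were not taken as pairs.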

Additional observations from a re-analysis of the deposited data

Results flagged for a closer look

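Values were examined for a single array far from the other 3 of its genotype, by Dixon's ratio of the gap to the whole range above its 95% critical value for 4 samples. Chance alone gives about 1 in 20, and 64 groups of 4 were examined. Ndufb3 in Cebpg-/- replicate 1, at 8.41, stood above the other 3 arrays at 8.24 to 8.26. Ndufa4l2 in the same sample, at 2.81, stood below the others at 2.99 to 3.01. In WT replicate 3, Uqcr11 at 8.92 stood above 8.85 to 8.86 and Atp5e at 8.98 above 8.81 to 8.83. In WT replicate 4, Cox7a2l at 8.71 stood below 8.93 to 8.97. Of the medians over a complex, relative to WT, complex III in WT replicate 3 stood at 0.0461, with the others between -0.0063 and -0.0007, and complex IV in WT replicate 4 at -0.0953, with the others between 0.03 and 0.05.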

How the results depend on the processing

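The median difference over members, 0.10, stayed within the spread of the array medians (SD 0.044) under every alternative tried, from 0.08 to 0.14, and 63 to 70 members had a positive difference in the fits over all 8 arrays and all 79 members, among them 63 to 66 of the 66 that were positive at first. The count of 6 rises did not hold as well; the share of all genes that rose is given beside each count. It was 2 with quantile normalization (Ndufa4 and Ndufb3; 6.22% of all genes), 17 with array medians subtracted (12.03%), 14 with an intensity trend and robust variance (9.22%), 0 with the leukocyte covariate (1.41%), 0 without both WT replicate 1 and Cebpg-/- replicate 1 (1.91%), and 16 at a threshold of 0.1 (12.9%). It ranged from 0 to 5 without 1 array. The count of falls was 1 with array weights, 1 at a threshold of 0.1, and 0 to 1 without 1 array, the member being Cox6a2. The replicate block gave 1 rise, Cox6b2 (5.38% of all genes), and 6 rises of the mitochondrial ribosome, and the numbers do not pair the samples. Median differences without 1 array ran from 0.08 to 0.11. Leaving out dim probe sets gave 9 rises of 76 (14.5% of all genes) and averaging the probe sets of a gene 8 (7.23%). Among 26 named members no difference past the threshold turned its sign; 54 values fell short of a threshold they had passed and 11 newly passed it. The causes were not tested. With 4 arrays per genotype and a median standard error of 0.059, differences of the size most members show are hard to call singly.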

Other observations

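Other mitochondrial gene groups were counted from lists that hold no member. Their shares are given beside all genes, and among genes above the median probe set 12.6% rose. Of 15 genes that copy or transcribe mitochondrial DNA 14 had a positive difference, the median was 0.16 and none fell, while 3 rose (20%, against 8.62% of all genes). They were Mterf2 (0.40, adjusted p = 0.00809 by limma) and Mterf4 (0.23, adjusted p = 0.0333), of the mitochondrial transcription termination factor family, and Polg2, the accessory subunit of the mitochondrial DNA polymerase (0.41, adjusted p = 0.0132). Tfam, which packs and transcribes mitochondrial DNA, was at 0.04 (adjusted p = 0.734). Of 23 genes of protein import 5 rose (21.7%, against 8.62% of all genes) and 1 fell, with a median of 0.09. The paralogs Timm17a and Timm17b, channel subunits of the inner membrane translocase, went opposite ways. Timm17a read 9.62, 9.58, 9.58 and 9.58 in WT and 9.93, 9.82, 9.85 and 9.86 in Cebpg-/-, a rise of 0.28 (adjusted p = 0.00887 by limma). Timm17b read 7.82, 7.76, 7.67 and 7.62 in WT and 7.42, 7.58, 7.50 and 7.37 in Cebpg-/-, and fell by 0.25 (adjusted p = 0.0396 by limma). Timm10, a small chaperone of the intermembrane space, and Tomm7, of the outer membrane translocase, rose by 0.28 (adjusted p = 0.0194) and 0.23 (adjusted p = 0.0218).

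Of 18 TCA cycle genes 1 rose (5.56%, against 8.62% of all genes) and 1 fell, with a median of 0.09. Idh2, the NADP-linked isocitrate dehydrogenase of mitochondria, read 7.75, 7.86, 7.74 and 7.64 in WT and 6.99, 7.54, 7.20 and 7.06 in Cebpg-/-, and fell by 0.55 (adjusted p = 0.0129 by limma). Idh3b, of the NAD-linked enzyme, rose by 0.19 (adjusted p = 0.0477). Averaging the probe sets of each gene left no rise and no fall in this list. None of 9 ATP, phosphate and proton carriers passed, with a median of 0.04. Without 1 array 1 to 4 import genes rose, 1 without each of WT replicate 1, Cebpg-/- replicate 1 and Cebpg-/- replicate 3, and 2 to 3 of the mitochondrial DNA genes. Idh3b passed in 1 of the 8 such fits, the one without WT replicate 2, and Timm17b in 2, those without WT replicate 4 and Cebpg-/- replicate 2. With the leukocyte covariate none of the import, TCA and mitochondrial DNA genes passed.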
